A study of Mus musculus with 4 samples.

Results

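The Hedgehog pathway and Gli factor genes were followed in 4 mouse brain tumour libraries. The 8 genes were chosen by symbol (Shh, Ptch1, Smo, Sufu, Hhip, Gli1, Gli2 and Gli3), and all 8 were found among the 46946 genes of the count table, each with 1 identifier. The labels describe untreated tumours grown in mice from neural stem cells with PDGF (PDGFB in the titles) and genotype K27M, the histone H3 change that removes the lysine methylated by the PRC2 complex. The series text speaks instead of injecting cells of DIPG, a childhood glioma of the brainstem, that express a mutant H3.3, and the labels name no strain, age, promoter or number of clones. All 4 tumours share these features and form 1 group, so there is no normal brain, cultured cell or second genotype to compare with. The count columns are named T14, T10, T8 and TUN, and none of these names matches the title of 1 sample, so each is used as a tumour with no replicate number.

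Hedgehog signalling starts when a secreted ligand binds the receptor Ptch1, which without ligand keeps the membrane protein Smo inactive. Active Smo gathers in the primary cilium and frees the Gli transcription factors from Sufu, so that full-length Gli proteins switch on target genes in place of the shortened repressor form, made mainly from Gli3. Gli1, Ptch1 and Hhip are themselves target genes and serve as readouts of the pathway. In the cerebellum, Purkinje cells secrete Shh, which drives division of granule cell precursors, and in the ventral brain and spinal cord Shh helps specify oligodendrocyte precursors.

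The promoters of 6 of the 8 genes were matched in RefSeq (GRCm38.p6, the assembly that mm10 names): Gli2, Gli3, Hhip, Ptch1, Smo and Sufu. They were searched on both strands for the Gli site GACCACCCA and for its inner letters CCACCC in a window of 300 bases, 250 before and 50 after the start. The full site was in 0 of the 6 windows, against 0.253% of all 32851 promoters. The inner letters, which the full site contains, were in 4 of the 6 (Gli2, Gli3, Hhip and Smo), against 31.5% of all promoters. That background was not matched for GC content, which ran from 56.3% (Sufu) to 76.3% (Ptch1) in the 6 windows. The stretches below are the 250 bases before the start for Gli2, a Gli gene with its highest values in T14 and T10, and for Ptch1 and Hhip, a pair of target genes whose values did not run together. They lie at chr1:119053620-119053869, chr13:63565736-63565985 and chr8:80058009-80058258, all on the minus strand, and hold no exon of the table. Capitals mark the inner letters or their reverse complement, at 205 and 192 bases before the start in Gli2 and at 158 in Hhip. No match in Ptch1 says only that these letters are not in this window. The table also holds exons of Ptch1 and Gli3 farther upstream, so the starts used here are not the only ones of those genes. For Gli3 all 250 bases before the start lie in exons of the table, its match at 170 bases included.
Gli2: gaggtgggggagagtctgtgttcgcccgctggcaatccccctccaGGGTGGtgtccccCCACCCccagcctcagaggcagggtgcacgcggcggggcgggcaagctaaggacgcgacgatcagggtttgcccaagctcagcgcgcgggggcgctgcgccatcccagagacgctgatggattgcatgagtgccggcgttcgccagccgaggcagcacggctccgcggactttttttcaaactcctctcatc
Ptch1: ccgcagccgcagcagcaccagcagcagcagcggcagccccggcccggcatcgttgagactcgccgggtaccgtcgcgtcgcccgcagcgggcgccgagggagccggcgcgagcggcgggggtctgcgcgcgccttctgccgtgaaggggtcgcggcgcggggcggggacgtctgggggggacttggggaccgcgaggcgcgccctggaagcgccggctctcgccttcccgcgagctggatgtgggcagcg
Hhip: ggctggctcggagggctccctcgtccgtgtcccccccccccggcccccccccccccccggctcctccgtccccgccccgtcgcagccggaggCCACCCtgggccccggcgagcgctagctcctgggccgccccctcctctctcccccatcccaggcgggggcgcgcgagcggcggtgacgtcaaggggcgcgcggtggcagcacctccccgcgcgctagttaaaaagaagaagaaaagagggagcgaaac

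Library totals ran from 21664889 to 24369339 counts. Counts were scaled with edgeR's TMM factors to library size (CPM), and for comparison between genes divided by exon length (RPKM). Values of the libraries are listed in the order T14, T10, T8, TUN unless named singly. A library with 0 counts of a gene was given a floor of 3 counts, which is 0.122 to 0.134 CPM. Variation between tumours was tested for each gene with edgeR's goodness of fit against genes of like abundance, at an adjusted p of 0.05, and 4.34% of all 14266 genes tested passed. Of the 8 members 7 were tested and 0 passed. At an unadjusted p under 0.05 stood 1 of these 7, Gli2, against 1196 of all 14266 genes. As dispersion outliers in DESeq2 0 members and 1 other pathway gene, Zic1, were called, against 78 of all 14266 genes. The labels do not say whether the tumours came from separate cell cultures or injections, so these p-values measure only the spread between the 4 samples. The 8 oligodendrocyte precursor markers and the 8 markers of dividing cells were detected at 1 CPM or more in all 4 tumours. Fewer cells of a type and less RNA per cell cannot be told apart in such bulk libraries.

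Per exon length, the receptor and the signal relay stood far above the Gli factors. Ptch1 was at 14.4 ± 5.35 RPKM (SD, n = 4), Smo at 7.15 ± 1.52 RPKM and Sufu at 5.51 ± 0.298 RPKM. Hhip followed at 2.05 ± 0.764 RPKM and Shh at 1.35 ± 0.678 RPKM. By mean level the Gli factors were the lowest of the 8. Gli1 was at 0.403 ± 0.581 RPKM, Gli2 at 0.375 ± 0.309 RPKM and Gli3 at 0.29 ± 0.188 RPKM. In T14, however, Gli1 at 1.24 RPKM exceeded Hhip at 1.1 RPKM. Among all genes tested, 68.7% had a lower mean RPKM than Ptch1, 48.5% than Smo and 41.2% than Sufu, but 3.4% than Gli1, 2.97% than Gli2 and 1.78% than Gli3. Along this order Ptch1 exceeded Smo, Smo exceeded Sufu and Sufu exceeded Hhip in 4 of 4 libraries, and the ranges of the last 2 of these pairs did not overlap. Hhip exceeded Shh in 3 of 4 libraries, the exception being T14, and Shh exceeded Gli1 in 4 of 4 with overlapping ranges. The 3 Gli factors could not be ordered beyond their spread.

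**Figure D1:**
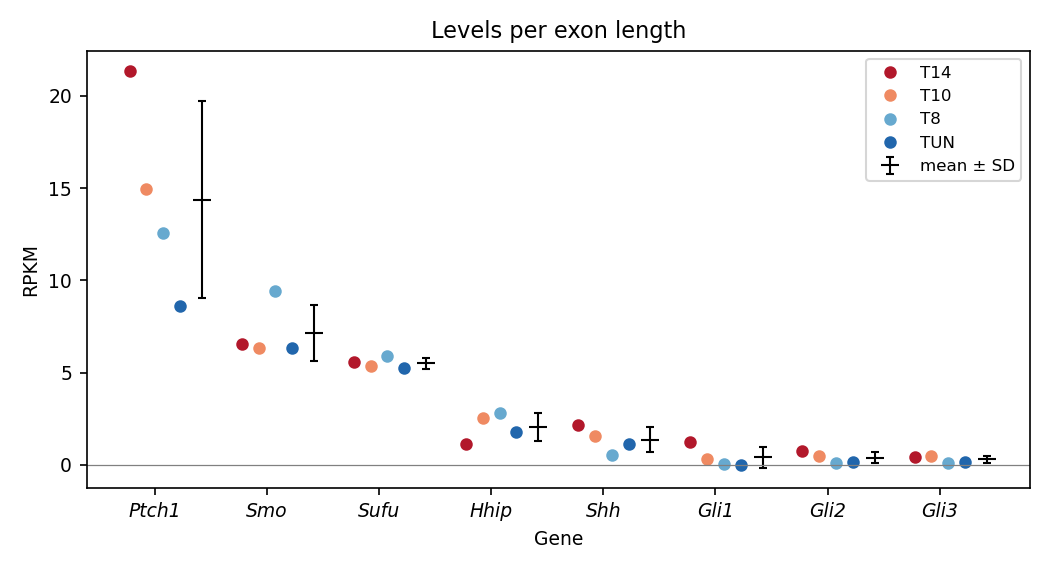
RPKM of the 8 genes in each of the 4 tumour libraries (coloured points), with the mean and SD in black, ordered by mean level. Ptch1 stands highest in every library, and Gli1, Gli2 and Gli3 lie between 0 and 1.25 RPKM.

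The ligand gene Shh was present at low level, with 6.16, 4.35, 1.55 and 3.26 CPM. T14 was highest and T8 lowest, a 3.96-fold span that was not called (edgeR, adjusted p = 1). Shh lies on chromosome 5, 28456815 to 28467256, minus strand, and 2 genes of the other strand share exon bases with it. Their reads cannot be told apart from those of Shh there without strand.

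Dhh, the ligand known from Schwann and Sertoli cells, took another order. It stood at 1.37, 1.34, 6.71 and 6.39 CPM, so T8 and TUN lay above T14 and T10. The difference was not called after adjustment (edgeR goodness of fit, adjusted p = 0.377). Ihh had 3, 4, 3 and 5 counts, at or just above the 3-count floor. Hhat, which attaches the lipid that the ligand needs, stood at 3.83 ± 1.11 CPM (SD, n = 4), and Disp1, which releases it from the membrane, at 12.4 ± 2.62 CPM. Of the secreted carriers, Scube1 ranged from 1.47 CPM in T8 to 8.06 in T10, Scube3 stood at 1.98 ± 0.619 CPM and Scube2 at 0.443 ± 0.246 CPM. Of the 8 genes of ligands and their release, Shh included, 6 were tested and 0 passed, with 1 at an unadjusted p under 0.05.

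Ptch1, the receptor and a target gene, stood at 187, 131, 110 and 75.4 CPM, from 4221, 3209, 2615 and 1686 counts. T14 was highest and TUN lowest, and T10 and T8 lay between, with a span of 2.48-fold. Each of the 4 Poisson intervals was apart from the next, so counting error is small beside these differences, but edgeR's goodness of fit did not call Ptch1 (adjusted p = 1). Its 28 merged exons lie on chromosome 13, 63508328 to 63573598, minus strand.

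Hhip, a membrane protein that binds the ligand as a decoy and is also a target gene, did not follow Ptch1. It stood at 5.4, 12.4, 13.7 and 8.72 CPM. T14, the highest library for Ptch1, was the lowest for Hhip. The fit did not call it either (adjusted p = 1 in edgeR). The log2 ratio of Ptch1 to Hhip was 4.16, 2.52, 2.13 and 2.21, a mean of 2.75 ± 0.95 (SD, n = 4; two-sided exact sign-flip p = 0.125). With 4 tumours this test cannot go below 0.125, so none of the ratios of genes here can be called, and their adjusted p-values ran from 0.25 to 0.625. Hhip lies on chromosome 8, 79966115 to 80058006, minus strand.

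Among the coreceptors, which present ligand to Ptch1, Boc stood out. It reached 54.5, 19.4, 6.92 and 4.87 CPM (edgeR goodness of fit, adjusted p = 0.00134). The order was that of Ptch1, with an 11.2-fold span, and the call was lost without T14 (adjusted p = 0.845; the range over 7 alternatives is 0.00141 to 0.845). Cdon and Gas1 were abundant without such a gradient. Cdon stood at 88.3, 157, 142 and 81.6 CPM, and Gas1 at 81.4, 81.6, 121 and 84.9 CPM. Of the 8 coreceptor and ligand-binding genes tested, 1 passed, against the background of 4.34%. Per length Gas1 (31.2 ± 6.56 RPKM, n = 4) and Cdon (15.2 ± 4.93 RPKM) led this group, while Boc was at 4.81 ± 5.15 RPKM. Lrp2 was at 1.08 ± 0.257 CPM, and the glypican Gpc6, a cell-surface heparan sulfate proteoglycan, at 54.5 ± 16.8 CPM.

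Smo, the transducer that Ptch1 holds inactive, stood at 36.8, 35.5, 53 and 35.5 CPM. T8 lay apart from the other 3 libraries, which agreed within their counting intervals. Sufu, which binds Gli proteins and keeps them out of the nucleus, had the smallest spread of the 8, at 38.5, 37.2, 41 and 36.3 CPM, or 1.13-fold. Neither was called in edgeR's goodness of fit (adjusted p = 1 for both). Ptch1 exceeded Smo per length in 4 of 4 tumours, with log2 ratios of 1.69, 1.23, 0.41 and 0.44 (mean 0.94 ± 0.63, exact sign-flip p = 0.125). Smo lies on chromosome 6, 29735503 to 29761365, and Sufu on chromosome 19, 46396896 to 46488804, both on the plus strand.

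The machinery between receptor and Gli factors was present throughout. All 12 cilium and relay genes were detected in all 4 tumours, and 0 of 12 passed the test or had an unadjusted p under 0.05. Their median span was 1.49-fold against 1.57 for all genes tested. Of all 14266 genes tested, 13245 were detected in all 4 tumours, 4.34% passed and 1196 had an unadjusted p under 0.05. Detection and the lack of calls therefore do not set this list apart. Kif3a, a motor of ciliary transport, led this list at 29.2 ± 6.5 RPKM (SD, n = 4), followed by Ift172 at 5.35 ± 1.26 RPKM. All 12 genes for kinases and degradation of Gli proteins were likewise detected, and 0 of 12 passed or had an unadjusted p under 0.05, with a median span of 1.36-fold. Prkar1a, a regulatory subunit of protein kinase A, which marks Gli proteins for processing, was the most abundant at 188 ± 16.2 RPKM, and the catalytic subunit gene Prkaca stood at 93.8 ± 3.34 RPKM.

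Gli1, the activator that the pathway induces and a standard readout of its activity, was counted 103 times in T14 and 30 times in T10, but 3 times in T8 and 0 times in TUN. On the CPM scale these are 4.56, 1.22, 0.126 and 0. T14 was highest, as for Ptch1 and Boc, T10 lay between, and T8 and TUN lay at or under the 3-count floor. The value in T14 was 3.74-fold that in T10 (95% exact binomial interval 2.47 to 5.82) and 36.2-fold that in T8 (interval 12.1 to 179). With TUN set at its 3-count floor, the value in T14 was 34-fold higher, given without an interval. The upper end of the 95% Poisson interval for TUN, 0.165 CPM, lies above that floor. The mean of Gli1 was 1.48 CPM over the 4 libraries and 0.449 CPM without T14. These intervals cover counting error only, since each tumour is a single library. That the reads carried no molecular identifiers is a further limit. Gli1 lies on chromosome 10, 127329889 to 127341589 in mm10 on the minus strand, with 13 merged exons, and shares exon bases with 2 genes of the other strand.

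The low-count filter of the test, which asks for a minimum level in all 4 libraries, removed Gli1. Without that filter Gli1 passed (edgeR goodness of fit, adjusted p = 0.00188), as did 2.75% of 25961 genes, and this was the single setting in which it could be tested. Without the filter the other 7 members did not pass.

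Gli2, the main activator among the Gli factors, stood at 5.18, 3.42, 0.797 and 0.894 CPM, from 117, 84, 19 and 20 counts. T14 and T10 lay above T8 and TUN, and the 95% Poisson intervals of T10 (2.73 to 4.23 CPM) and TUN (0.546 to 1.38 CPM) did not meet. The highest value was 6.5 times the lowest, with an unadjusted p of 0.0145 and an adjusted p of 0.235 in edgeR's goodness of fit, so it was not called. Over the 7 alternatives that tested it, the adjusted p of Gli2 ran from 0.237 to 0.984. Its mean was 2.57 CPM, and 1.7 CPM without T14. Gli3, the main repressor, stood at 4.07, 4.56, 0.965 and 1.52 CPM from 92, 112, 23 and 34 counts. T14 and T10 were again the higher pair, but here T10 led, and the adjusted p was 0.866. Gli2 lies on chromosome 1 (118834132 to 119053619, minus strand, 16 merged exons) and Gli3 on chromosome 13 (15463235 to 15730026, plus strand, 16 merged exons), where it shares exon bases with a gene of the other strand.

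The balance of the Gli factors differed between libraries. On the scale log2(RPKM + 0.1), Gli2 lay below Gli1 by 0.65 in T14, a ratio of -0.65, and above it by 0.46, 0.69 and 1.2 in the other libraries. The ratio of Gli3 to Gli1 was -1.36, 0.41, 0.58 and 1.37. T14 was thus the single library with more Gli1 than Gli2 or Gli3 per length. The means were 0.42 ± 0.78 for Gli2 to Gli1 and 0.25 ± 1.15 for Gli3 to Gli1 (SD, n = 4; two-sided exact sign-flip p = 0.375 and 0.625). The ratio of Gli2 to Gli3 had a mean of 0.17 ± 0.37 (exact sign-flip p = 0.625). In T8 and TUN, where Gli1 had 3 and 0 counts, the pseudocount sets the size of the ratios to Gli1. The mean ratio of Gli2 to Gli1 was 1.29 with a pseudocount of 0.01 and 0.025 with a pseudocount of 1.

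**Figure D2:**
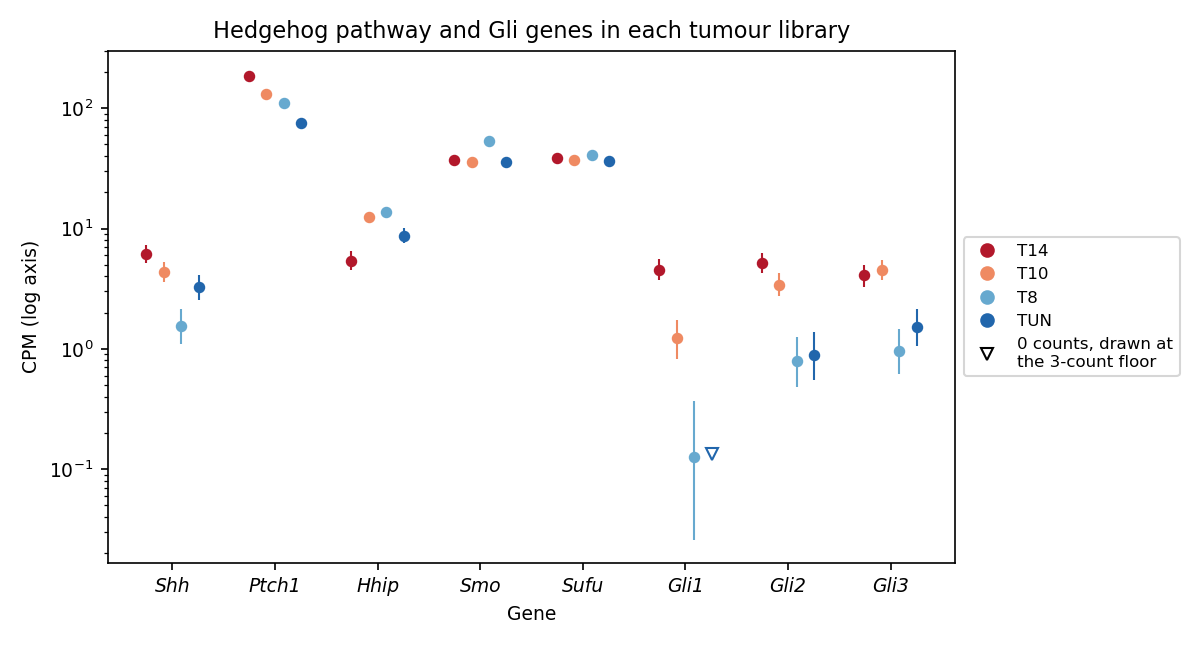
CPM of the 8 genes on a log axis in each library, with 95% Poisson intervals as bars and an open triangle for 0 counts drawn at the 3-count floor. Gli1 ranges from 4.56 CPM in T14 to 0 counts in TUN, while Sufu lies between 36.3 and 41 CPM.

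Genes known as Hedgehog targets in some tissues, other than the members, gave 0 calls among 10 tested in edgeR's goodness of fit, with 1 at an unadjusted p under 0.05. The D-type cyclin Ccnd1 was the most abundant, at 710 ± 136 RPKM (SD, n = 4), followed by Ccnd2 at 100.2 ± 39.8 RPKM. Mycn, a target in granule cell precursors, stood at 18, 24.6, 38.4 and 29.4 CPM. Foxm1 stood at 54.6, 56.2, 116 and 127 CPM. T14 was the lowest library for both, whereas it was the highest for Gli1 and Ptch1. Sfrp1, a secreted Wnt antagonist, stood at 11.9, 27.5, 2.69 and 5.9 CPM and just missed the threshold (edgeR, adjusted p = 0.0552), which it passed without T14 (0.0233) and without TUN (0.0437) but not without T10 (1), without T8 (0.419) or without the low-count filter (0.181). Nkx2-2, a factor of the oligodendrocyte lineage, was level at 13.3 ± 1.6 CPM. Foxa2, the floor plate factor, had 0 to 2 counts in any library, and Hand2 had 0 in all.

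The Zic genes, whose zinc fingers resemble those of the Gli factors, held the other 3 of the 4 calls among the 58 pathway genes beside the members. Zic1 stood at 390, 104, 13.9 and 6.98 CPM (edgeR goodness of fit, adjusted p = 8.65e-15). Zic2 stood at 164, 45.5, 35 and 20.6 CPM (adjusted p = 0.000695) and Zic4 at 17.4, 7.77, 1.55 and 1.12 CPM (adjusted p = 0.00621). T14 was the highest library for each, as for Gli1. Without T14 the calls of Zic2 (adjusted p = 1) and Zic4 (adjusted p = 0.357) were lost and that of Zic1 was not (adjusted p = 6.77e-07). Zic4 was also lost without TUN (adjusted p = 0.0799). Over 7 alternatives the adjusted p of Zic1 ran from 9.91e-15 to 6.77e-07, that of Zic2 from 0.000754 to 1 and that of Zic4 from 0.00636 to 0.357. Zic5 did not pass, and neither did Glis1, Glis2 (33.5 ± 4.73 CPM) or Glis3.

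**Figure D3:**
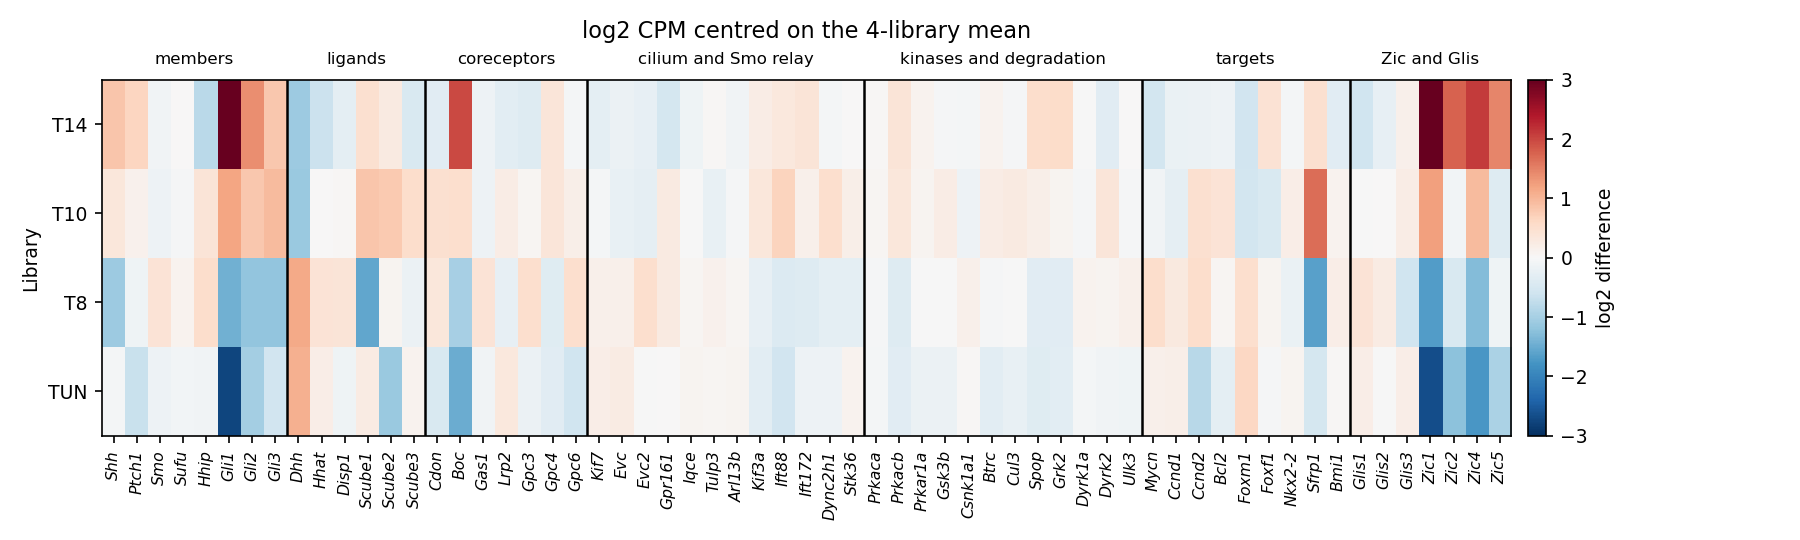
Each column is a gene and each row a library, coloured by log2 CPM (prior count 2) minus the mean of the 4 libraries, for the 8 members and the pathway genes shown, each with at least 40 counts in all. Gli1, Boc, Zic1, Zic2 and Zic4 are highest in T14, Dhh is higher in T8 and TUN, and the cilium and kinase genes are pale.

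Counted over the members, 5 of the 7 tested differed over 2-fold between the highest and lowest library, against 29.1% of all genes tested, with a median of 2.53-fold against 1.57. This background holds genes of all levels, and against genes of like abundance 0 of the 7 passed the test. T14 and T10 were the highest pair in 4 of the 7 (Shh, Ptch1, Gli2 and Gli3), against 32.7% of all genes. T14 alone was highest in 3 of the 7, against 28.9%. Gli1 is outside these counts because it was not tested. Of the 58 other pathway genes, 54 were tested and 4 passed, and 19 had T14 and T10 as the highest pair.

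Genes with the most similar pattern over the 4 libraries were sought among all genes with a mean CPM of 5 or more, by the root mean square difference of centred log2 CPM. The nearest to Gli1 were Zic1 (difference 0.14), Kcnh1 (0.15) and St18 (0.19). Since Gli1 had 0 counts in TUN, the prior count of 2 enters this measure, and with a prior count of 0.5, tried after seeing the data, the nearest were Mab21l1, Dao and Sowahb. For Gli2 the nearest were Aldoc, the aldolase of astrocytes (0.034), Dixdc1 (0.05) and Trpm3 (0.058), and the smaller prior count kept these 3. For Gli3 they were Zfp612, Serpinb9 and Camk1d, for Ptch1 Btbd17, Abcd2 and Arhgef3, and for Hhip Sv2c, Tox2 and Spata13. The smaller prior count put Cdkl2 in the place of Camk1d for Gli3 and kept the genes of Ptch1 and Hhip. With 4 libraries many genes share any given order, so these are descriptions.

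Sums of granule cell and Purkinje cell markers were, like Gli1, highest in T14, but single genes did not all follow its order. Summed over its 10 genes, the list of cerebellar granule cells and their precursors came to 2000.25, 377, 123 and 137 CPM. Atoh1, the defining factor of granule cell precursors, which divide in response to Shh, was at 0 counts in T14, T8 and TUN and at 2 in T10. Barhl1 stood at 6.82, 2.77, 0.587 and 0.268 CPM and Barhl2 at 16.3, 2.81, 5.08 and 0.581 CPM. The 10 Purkinje cell markers summed to 4651, 768, 453 and 348 CPM, with Pcp2 at 92.2, 7.77, 0.294 and 0.134 CPM, Calb1 at 546, 74.2, 4.53 and 3 CPM, and Car8 at 711, 117, 222 and 147 CPM.

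Sums of astrocyte, neuron and mature oligodendrocyte markers were higher in T14 and T10 than in T8 and TUN, as the Gli genes were. The 10 astrocyte markers summed to 6106, 4120, 1473 and 1416 CPM, and the 10 neuron markers to 3300.0, 2591, 337 and 319 CPM. Among the 8 Bergmann glia markers, the sum stayed between 4240.0 and 5191 CPM, but Gdf10 stood at 103, 17.5, 1.26 and 0.894 CPM. The 8 mature oligodendrocyte markers summed to 2315, 3146, 841 and 925 CPM, highest in T10 as Gli3 was. T14 and T10 were the highest pair in 6 of these 8, in 10 of the 10 astrocyte and in 9 of the 10 neuron markers. Among all genes tested this share was 32.7%. Markers of ependymal cells summed to 35.3, 23.2, 11.7 and 12.1 CPM. The part of these cells in the values of Gli1, Gli2, Gli3, Ptch1, Shh and Boc was not tested.

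Sums of oligodendrocyte precursor and dividing cell markers were lowest in T14, but 0 of the 8 genes in each list passed the test. The median span was 1.6-fold for the precursor list and 2.91-fold for the dividing cell list, against 1.57 for all genes tested. The 8 oligodendrocyte precursor markers summed to 7110, 8158, 12230 and 9387 CPM, and the 8 markers of dividing cells to 704, 716, 1282 and 1685 CPM. Choroid plexus markers peaked in T10 at 633 CPM, against 50.6 for T14, 44.4 for T8 and 7.74 for TUN. Dhh, Hhip, Mycn and Smo were lower in T14 than in T8, as the precursor and dividing cell sums were. Over all 4 libraries Mycn alone of these genes took the order of the precursor sum, and none took that of the dividing cell sum. The part of those cells in the values of these genes was not tested. Sums of vascular (274 to 388 CPM), fibroblast (304 to 419 CPM) and microglia markers (615 to 752 CPM) differed less between libraries. Single fibroblast markers differed more than their sum, with a median span of 3.07-fold, against 1.77 for vascular and 1.61 for microglia markers. In each of these 3 lists 0 genes passed the test.

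**Figure D4:**
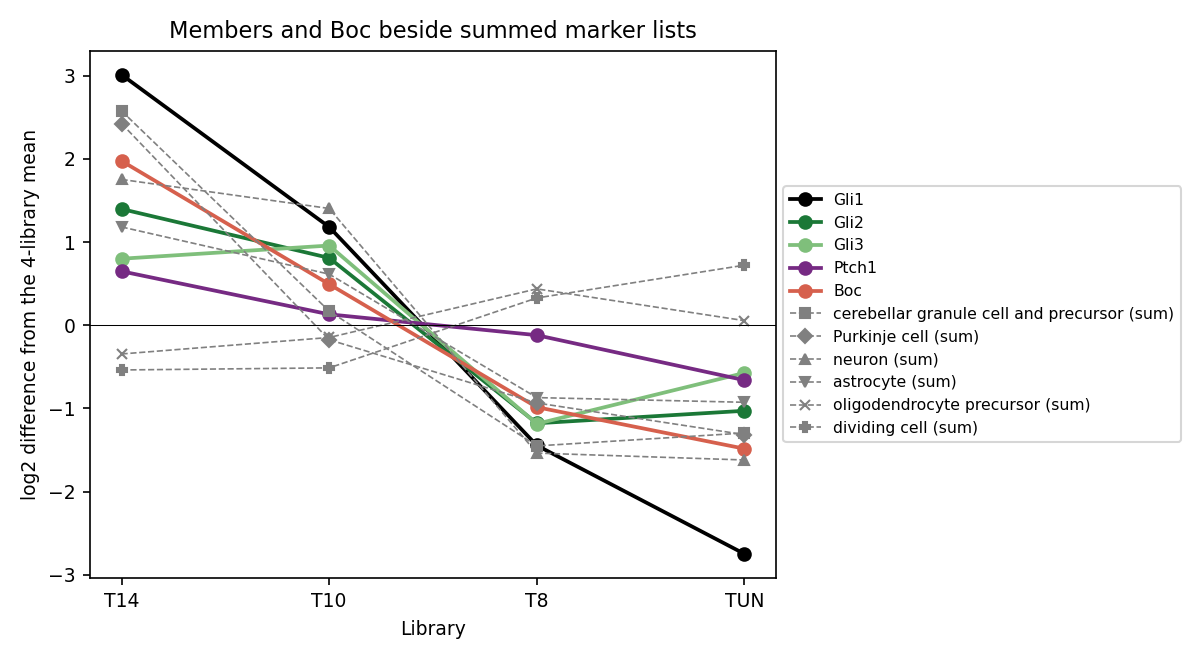
log2 difference from the 4-library mean in each library for Gli1, Gli2, Gli3, Ptch1 and Boc (solid lines) and for the summed CPM of 6 marker lists (dashed). The genes are drawn with a prior count of 2 and the sums without a prior count. Lines only join the points of 1 gene or list, since the libraries have no order. Gli1 spans 3.01 in T14 to -2.75 in TUN, where it had 0 counts, so the prior count sets the size of this span. The granule cell, Purkinje, neuron and astrocyte sums are highest in T14, and the precursor and dividing cell sums are not.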

How the data were processed

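RNA of 4 tumours was sequenced as polyA libraries with a TruSeq kit, per the labels' protocols. The authors deposited whole-number read counts per gene, for which the submitters' processing notes name STAR, featureCounts and mm10. For tool versions, strand setting and multi-mapping reads, nothing is given in the sources used here. The table also gives merged exon lengths and exon coordinates. Symbols were matched by gene identifier for 46451 of 46946 genes, and 0 columns of sample values were left aside.

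Counts were scaled with TMM (edgeR 4.0.16 in R 4.3.3) to CPM and RPKM. The goodness of fit was that of an edgeR model with an intercept alone, using trended dispersions and edgeR's low-count filter, with residual deviance against chi-square (3 degrees of freedom) and Benjamini-Hochberg adjustment over 14266 genes. It was also run on counts simulated from its own fitted dispersions, which cannot show how it performs on these tumours. Adjusted p-values printed as 1 are rounded from just under it. Ratios used log2(RPKM + 0.1) with exact sign-flip tests (two-sided), adjusted over 6 ratios, 1 of which is not reported here, nor are 2 pathway genes. Named genes were the 8 members, ligand, coreceptor, Zic, Glis and called genes, the 2 most abundant of each of 6 pathway lists, the leading 3 of the granule cell and Purkinje marker lists, the first Bergmann glia marker and the 3 genes nearest to each of 5 members. Mycn, Foxm1, Sfrp1, Nkx2-2, Foxa2 and Hand2 were named after their values were seen. Members and lists were chosen with earlier results of these data known. Alternatives were DESeq2 1.42.0 size factors and dispersion outliers, library size alone, no low-count filter, other pseudocounts, no length correction and leaving out each library.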

Additional observations from a re-analysis of the deposited data

Results flagged for a closer look

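In 3 of the members and other pathway genes with at least 40 counts, 1 library lay far from the other 3 by Dixon's ratio at the 95% level. Chance flags about 1 in 20 groups, and 61 genes were searched. Smo stood at 53 CPM in T8 against 35.5 to 36.8 in the other libraries. The coreceptor gene Gas1 stood at 121 CPM in T8 against 81.4 to 84.9. Glis3 was low in T8, at 3.15 CPM against 5.31 to 5.61.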

How the results depend on the processing

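Under DESeq2 size factors or library size alone, edgeR's goodness of fit called 618 and 611 genes against 619, and 0 members and the same 4 pathway genes each time. DESeq2 dispersion outliers numbered 78, with 0 members and 1 pathway gene (Zic1). Without the low-count filter 713 genes were called, among them 1 member, Gli1. Leaving out each library in turn gave 426 to 462 calls over all genes, 0 members, and 2 to 4 pathway genes (2 without T14: Zic1 and Sfrp1). The ratio of Gli3 to Gli1 turned to -0.052 with pseudocount 1 and ranged from -0.12 (without TUN) to 0.79 when each library was left out. The ratio of Gli2 to Gli3 turned to -0.25 without length correction and ranged from -0.0019 (without T14) to 0.29. The causes were not tested. The ratio of Gli2 to Gli1 stayed above 0 but was 1.29 with pseudocount 0.01, 0.025 with pseudocount 1 and 1.72 without length correction, and ranged from 0.17 (without TUN) to 0.78 (without T14). The ratio of Gli3 to Gli1 was 1.09 with pseudocount 0.01 and 1.98 without length correction. The ratio of Ptch1 to Smo was 1.59 without length correction, and that of Ptch1 to Hhip moved by under 1.5 times. Without T14 the mean level was 0.449 CPM for Gli1 against 1.48 and 1.7 CPM for Gli2 against 2.57. No paired analysis was possible because the tumours form 1 group and the columns carry no sample number. Counts near 0 limit what can be said of Gli1 in T8 and TUN and of Ihh.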

Other observations

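Some members share exon bases with other genes in GENCODE vM21 on the same assembly. Shh shares 446 bases with 9530036O11Rik and 361 with Gm26894, both on the opposite strand. The deposited counts of Gm26894 were 40, 36, 8 and 25 for T14, T10, T8 and TUN, against 139, 107, 37 and 73 for Shh, and 9530036O11Rik had 7, 11, 0 and 4. Gli1 shares 62 bases with Arhgap9, which had 36, 42, 50 and 91 counts, highest in TUN, where Gli1 had 0. It also shares 265 bases with the antisense gene Gm47200, which is not used here. Gli3 shares 188 bases with Gm6556, which had 6, 5, 0 and 0 counts, and Hhip shares 175 with Gm27820, which had 0 counts in all 4 libraries. The exons of Ptch1, Gli2, Smo and Sufu share no base with another gene in that annotation.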
